A study of Danio rerio with 30 samples.

Results

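Total RNA of wild-type zebrafish embryos during the first 3 hours after fertilisation was examined in 4 Ribo-Zero libraries, those at 0, 1, 2 and 3 hours post fertilisation (hpf). The genes described are the 14151 of 35117 whose level, in transcripts per 1000000 (TPM), averaged 1 or more over these 4 libraries. Their level at 2 and 3 hpf was compared with that at 0 and 1 hpf on the scale of log2(TPM + 0.1). The series holds 30 libraries of pooled whole embryos (Danio rerio, strain not given in the sources used here). Of these, 9 are Ribo-Zero and 9 are poly(A) libraries of uninjected wild-type embryos, sampled hourly up to 8 hpf. Another 12 are poly(A) libraries, between 2 and 7.5 hpf, of embryos injected with alpha-amanitin, a blocker of RNA polymerase II, at the single-cell stage. In Ribo-Zero libraries ribosomal RNA is removed from total RNA, so that a transcript is counted whatever the length of its poly(A) tail. In poly(A) libraries a transcript is captured by its tail. The files hold 1 library for each condition and hour, so the spread within an hour cannot be estimated. The labels mention a biological replicate, and none of the sources used here says whether a library pools several sets of embryos.

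An egg is loaded with RNA made by the mother, and the embryo cleaves rapidly on this store while its own genome is almost silent. Maternal messages are first regulated by the length of their poly(A) tails, and many are cleared after the genome is activated, in zebrafish partly through the microRNA family miR-430, which is among the earliest genes to be transcribed. A change in total RNA during cleavage therefore bears on the stability of the RNA itself, and a change in poly(A) RNA bears on both stability and tail length. TPM values are shares of a library, so a fall of some transcripts and a rise of others cannot be told apart by TPM alone. In whole embryos, fewer cells with a transcript and less of it per cell cannot be told apart either.

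The libraries carried a store of egg transcripts and little of other cell types. The germ plasm organiser buc stood at 838, 843, 850 and 844 TPM at 0, 1, 2 and 3 hpf, and the pluripotency factor nanog at 830, 699, 705 and 729 TPM. The 7 follicle cell markers summed to at most 0.52 TPM in any of the 4 libraries, the 9 liver markers to at most 0.26 TPM and the 7 globin and other blood markers to at most 3.7 TPM. Of 24 markers of zygotic transcription 4 were measured, none was called, and the list summed to 14.2, 10.3, 8.6 and 13.8 TPM before it reached 652 TPM at 4 hpf. The 3 hpf library was not fully silent, however. The miR-430 loci were listed at 0 at 0, 1 and 2 hpf and summed to 73.7 TPM at 3 hpf and 5087 TPM at 4 hpf. They were also listed at 0 in the 5 alpha-amanitin libraries from 2 to 4 hpf. The 4 libraries are therefore named here by their hours, and not as libraries from before genome activation.

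The 0 hpf library stood somewhat apart from the other 3. Its levels correlated with theirs at Pearson r of 0.968 to 0.973 over the 14151 genes, against 0.978 to 0.979 among the other 3, as a description. A group of 23 loci named CT583728, singled out after its values were seen, took 3.15% of the TPM at 0 hpf and at most 0.0137% at 1, 2 and 3 hpf. The signal recognition particle RNA 7SL took 22.3% of the TPM at 0 hpf and 30.9% to 32.4% afterwards. Values without the 0 hpf library are given beside the counts of calls and the main gene lists below. Counts after mitochondrial and small structural RNAs, 7SL among them, were removed together are given too. The part of 7SL alone, or of the CT583728 loci, in the results was not tested.

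Total RNA hardly moved for most genes. Of the 14151 genes, 13098 (92.6%) changed by less than 0.5 on the log2 scale between the windows, and among the 9111 genes averaging 10 TPM or more this held for 97.9%. The median change was -0.07, and the 5th and 95th percentiles were -0.51 and 0.30. A fall of 1 or more on the log2 scale was seen for 135 genes and a rise of 1 or more for 96. The median step was -0.19 from 0 to 1 hpf, 0.03 from 1 to 2 hpf and -0.01 from 2 to 3 hpf, so the largest shift of the median lay in the first hour.

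**Figure D1:**
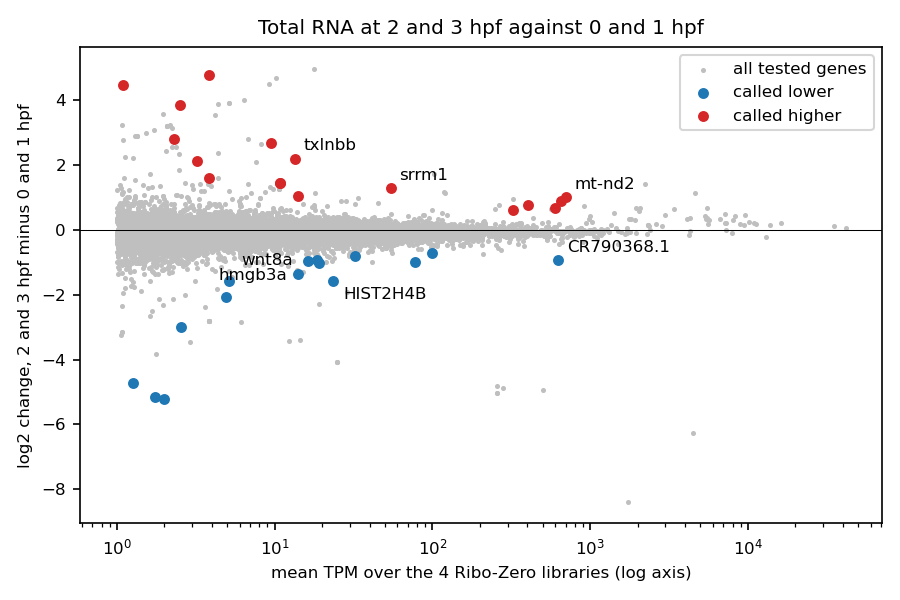
Each point is 1 of the 14151 genes, with its mean TPM over the 4 Ribo-Zero libraries (log axis) against its log2 change between 2 and 3 hpf and 0 and 1 hpf. Most points lie within 0.5 of 0, and the 15 genes called lower (blue) and 17 called higher (red) include both scarce and abundant transcripts.

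In the limma fit of the windows, 15 genes (0.106% of those tested) were called lower and 17 (0.12%) higher at an adjusted p under 0.05. The libraries of a window are successive hours and not replicates, so the error of a change includes any real change within a window, and an exact permutation test of 2 against 2 libraries cannot go below a two-sided p of 0.333. The counts were not stable. With median-of-ratios scaling 0 genes were called lower and 1, srrm1, higher. Without the 0 hpf library, when the early window is the 1 hpf library alone and the spread comes from the 2 and 3 hpf libraries only, no gene was called in limma, with 508 lower and 1075 higher at an unadjusted p under 0.05. The named genes below were chosen with windows that do not overlap. That choice fixes the direction of their change in every alternative setting except those that rescale the libraries. They kept it in each of the 220 combinations of gene and alternative setting that could be fitted, but passed the threshold in 83 of them. Their calls are therefore read here as a way of choosing genes, and the levels by hour carry the description.

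At an unadjusted p under 0.05, 739 genes (5.22%) were lower and 217 (1.53%) higher. Both later libraries lay below both earlier ones for 3867 genes (27.3%) and above them for 1005 (7.1%). These shares are the background for the gene lists below. After mitochondrial and small structural RNAs were removed, 641 genes were lower and 576 higher at an unadjusted p under 0.05 in limma.

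Of the 9 genes called lower that averaged 10 TPM or more, 6 were lower still at 6 hpf than at 3 hpf. CR790368.1 was the most abundant of the genes called lower, with 936, 720, 484 and 377 TPM at 0, 1, 2 and 3 hpf, so that each hour was lower than the hour before it. Its change was -0.94 (SE 0.15, adjusted p = 0.0336), a 1.92-fold lower mean TPM, and it went on to 248 TPM at 4 hpf and 2.49 TPM at 8 hpf. The files give no further annotation of this gene.

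The transcript of dck, the deoxycytidine kinase of nucleotide salvage, had 45.1, 37.6, 23.0 and 24.0 TPM, and both later libraries were below both earlier ones. Its change was -0.81 (SE 0.14, adjusted p = 0.0472), and it reached 12.8 TPM at 4 hpf and 2.16 TPM at 6 hpf. Lower as well were si:dkeyp-46h3.2 and si:dkeyp-46h3.6, which share a clone name. The former had 115, 91.2, 51.7 and 51.0 TPM (change -1.0, SE 0.13, adjusted p = 0.0158) and the latter 138, 110, 76.2 and 72.3 TPM (change -0.73, SE 0.13, adjusted p = 0.0491). Both then fell further, to 8.35 and 2.38 TPM at 8 hpf. CU929416.1 had 25.4, 25.7, 11.9 and 13.1 TPM (change -1.03, SE 0.15, adjusted p = 0.0234), a level that dropped between 1 and 2 hpf and not within either window, and it stood at 0.3 TPM at 8 hpf.

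A maternal signalling gene was also among them. The files list wnt8a, a Wnt ligand that patterns the ventral and posterior embryo, under 2 identifiers. ENSDARG00000052910 had 21.6, 21.1, 11.4 and 10.5 TPM (change -0.96, SE 0.16, adjusted p = 0.0341), with a single drop between 1 and 2 hpf. The other identifier had 25.1, 25.0, 27.2 and 20.2 TPM and its windows overlapped. Reads shared by the 2 annotated genes may have been divided between them, so the fall of the former is uncertain as a fall of wnt8a.

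The other 3 abundant genes called lower were low only for a time. The histone H4 gene HIST2H4B, whose product packs DNA in the nucleosome, had 29.8, 40.2, 10.1 and 13.2 TPM (change -1.57, SE 0.19, adjusted p = 0.0101), then 44.2 TPM at 4 hpf and 413 TPM at 6 hpf. Histone genes are near-identical copies between which the counting may divide reads, and the 28 loci named hist1h4l summed to 10770, 12600, 10350 and 11230 TPM, levels that differed far less. The chromatin protein gene hmgb3a had 19.4, 21.0, 7.03 and 8.7 TPM (change -1.36, SE 0.18, adjusted p = 0.0158) and reached 203 TPM at 8 hpf. The zinc finger gene znf1157 (ENSDARG00000095617) had 24.3, 24.9, 12.8 and 12.7 TPM (change -0.94, SE 0.15, adjusted p = 0.0314) and was back at 22.2 TPM at 5 hpf.

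The 6 genes called lower at a mean TPM under 10 are scarce. Of these, 4 averaged under 1 TPM at 2 and 3 hpf. These 4 passed the filter on low values only through their level at 0 and 1 hpf. The small nucleolar RNAs SNORD21 and SNORA32 and the gene CT027801.2 had at most 5.67 TPM at 0 and 1 hpf and were listed at 0 at 2 and 3 hpf, and both small nucleolar RNAs were measured again at 5 hpf, at 5.55 and 7.48 TPM.

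**Figure D2:**
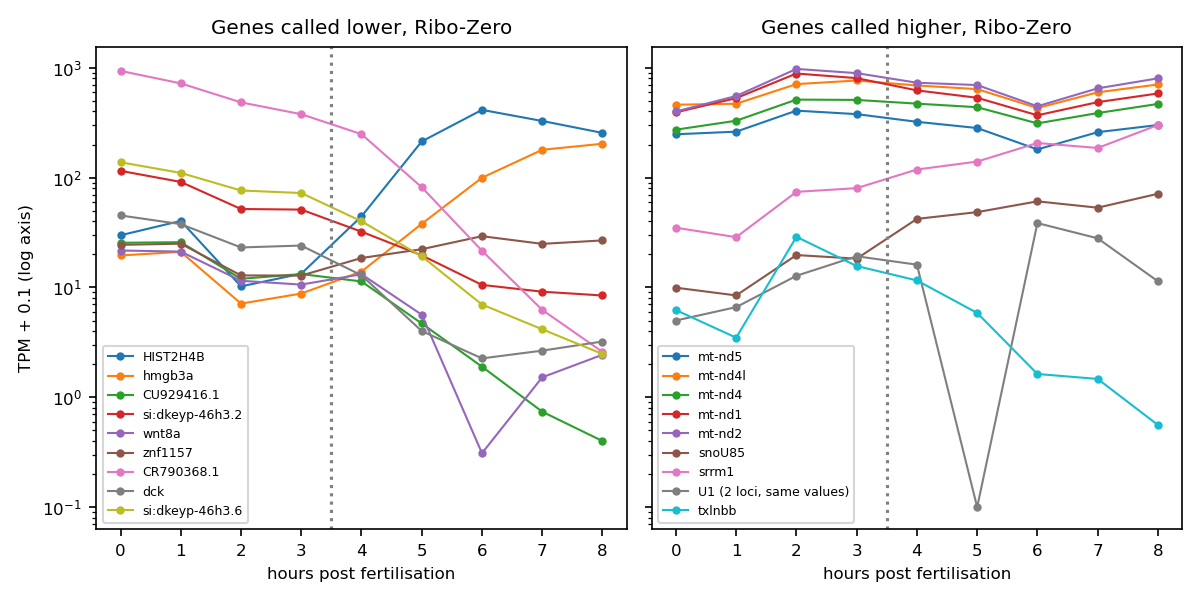
TPM + 0.1 (log axis) across the 9 hourly Ribo-Zero samples for the called genes averaging 10 TPM or more, with lower genes on the left and higher genes on the right and a dotted line after 3 hpf. CR790368.1, dck and the si:dkeyp-46h3 genes are lower still at 6 hpf, HIST2H4B and hmgb3a return above their first level, and the mitochondrial genes peak at 2 or 3 hpf.

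The clearest apparent rise among protein-coding nuclear genes was that of srrm1, which encodes a splicing coactivator of the SR-related family. It had 34.9, 28.6, 74.0 and 80.0 TPM, with both later libraries above both earlier ones. The change was 1.28 (SE 0.13, adjusted p = 0.00719), a 2.43-fold higher mean TPM, and it was the gene that stayed called with median-of-ratios scaling (change 1.35, adjusted p = 0.0439) and after mitochondrial and small structural RNAs were removed (change 1.37, adjusted p = 0.0188). Without the 0 hpf library it was not called, like every other gene. It rose on to 118 TPM at 4 hpf and 300 TPM at 8 hpf. In the poly(A) profile srrm1 was higher too, with 39.2, 165, 308 and 252 TPM and a change of 1.79 (SE 0.57, adjusted p = 0.0153). That poly(A) call was kept in 2 of 6 alternatives, and with median-of-ratios scaling the change was 1.07 (adjusted p = 0.175).

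The other gene called higher that averaged 10 TPM or more, outside the mitochondrial and small structural RNAs, was txlnbb, of the taxilin family. It had 6.12, 3.39, 28.8 and 15.6 TPM (change 2.19, SE 0.31, adjusted p = 0.0189), so the hours within each window differed as well. It then fell to 0.46 TPM at 8 hpf. In the poly(A) profile it had 0.62, 0.09, 5.87 and 5.15 TPM (change 3.92, SE 0.73, adjusted p = 0.000952), a call kept in 4 of 6 alternatives. In embryos injected with alpha-amanitin it had 7.38 TPM at 2 hpf, 9.72 TPM at 3 hpf and 17.9 TPM at 4 hpf, a slope of 0.72 per hour on the log2 scale (SE 0.15, adjusted p = 0.0184).

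Most mitochondrially encoded messages took a larger share of total RNA at 2 and 3 hpf. All 13 were measured, and their median change was 0.66 against -0.07 over all genes tested. In both later libraries 12 of the 13 were higher, against 7.1% of all genes. Of these, 5 were called and 12 had an unadjusted p under 0.05 in limma, against 0.12% and 1.53% of all genes higher. The 13 messages were measured in the same libraries, and whether they vary independently of each other was not tested. The 5 called genes encode subunits of respiratory complex I. The largest change was that of mt-nd2, with 400, 553, 975 and 893 TPM (0.99, SE 0.15, adjusted p = 0.024). Next came mt-nd1, with 392, 529, 886 and 804 TPM (0.89, SE 0.14, adjusted p = 0.0336), and mt-nd4, with 273, 329, 513 and 509 TPM (0.77, SE 0.12, adjusted p = 0.0286). Smaller changes passed for mt-nd4l (0.66, SE 0.11, adjusted p = 0.035) and mt-nd5 (0.62, SE 0.11, adjusted p = 0.0459).

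The cytochrome oxidase message mt-co1 had 2624, 2394, 3207 and 3731 TPM (0.46, SE 0.14, adjusted p not under the threshold). Only mt-atp8 overlapped between the windows, with 332, 190, 275 and 323 TPM. Together the 13 took 1.16%, 1.15%, 1.69% and 1.84% of the TPM. The median change of the list was 0.65 without the 0 hpf library, with 0 called, and 0.73 with median-of-ratios scaling, with 0 called. In the poly(A) profile the same 13 had a median change of -0.07, against 1.21 over all genes tested there. In that profile 0 of them were called in either direction in limma.

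The small structural RNAs of splicing and of ribosome production were 8 of the other genes called higher. Of the 17 genes called higher, 6 were loci of the U1 spliceosomal RNA and 2 were guide RNAs of small nucleolar or Cajal body type. These were 6 of 94 measured spliceosomal loci and 2 of 35 measured guide RNA loci, against 0.12% of all genes. Another 2 of the 35, SNORD21 and SNORA32, were called lower. At an unadjusted p under 0.05 in limma, 36 of the 94 were higher and 9 lower, against 1.53% and 5.22% of all genes. Copies of such RNAs share sequence, and 2 of the 6 U1 loci hold the same values in every library, so single loci are uncertain and family sums are given. Of the 17, 4 averaged under 1 TPM at 0 and 1 hpf, 2 of them U1 loci, and so passed the filter on low values only through their level at 2 and 3 hpf. The 382 loci named U1 summed to 294, 508, 648 and 787 TPM, a log2 change of 0.89, and the 14 loci of U2 to 29.8, 41.6, 73.4 and 84.8 TPM, a change of 1.16. Both families were higher at each hour than at the hour before it from 0 to 3 hpf. With median-of-ratios scaling these changes were 0.95 and 1.23. The other spliceosomal families did not follow that course. The U4 loci summed to 43.2, 60.3, 47.5 and 81.7 TPM, a change of 0.29, and the U5 loci to 6.08, 2.51, 0 and 10.7 TPM, so that their windows overlapped, while U6 was listed at 0 until it had 1.5 TPM at 3 hpf.

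RNase MRP, which processes ribosomal RNA precursors, had 142, 327, 403 and 420 TPM and later reached 1532 TPM at 8 hpf. The small nucleolar and Cajal body RNAs, which guide RNA modification, summed to 344, 502, 567 and 605 TPM. The Cajal body RNA snoU85 had 9.85, 8.36, 19.6 and 18.2 TPM (1.05, SE 0.17, adjusted p = 0.0336). For U1, RNase MRP and the sum of small nucleolar and Cajal body RNAs, much of the rise lay between 0 and 1 hpf. The U2 sum rose more from 1 to 2 hpf, and snoU85 was not higher until 2 hpf. Without the 0 hpf library the median change of the spliceosomal loci was 0.18 in place of 0.79, and that of the small nucleolar loci 0.17 in place of 0.62. The sum over 7SL loci was 223000, 323600, 309400 and 308600 TPM, so it was higher at 2 and 3 hpf than at 0 hpf and lower than at 1 hpf.

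**Figure D3:**
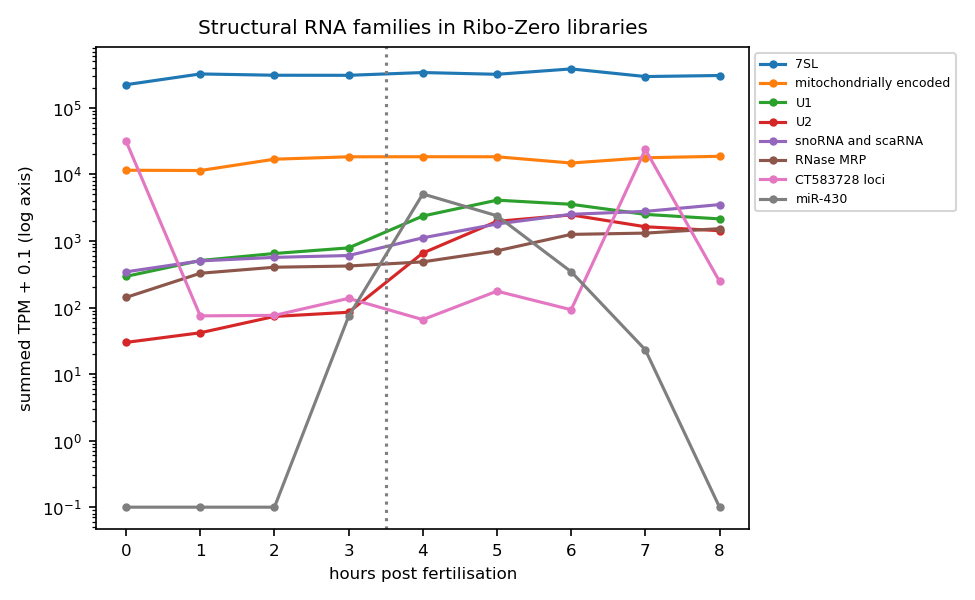
Summed TPM + 0.1 (log axis) of RNA families in hourly Ribo-Zero samples up to 8 hpf, with a dotted line after 3 hpf. U1, U2, the small nucleolar RNAs and RNase MRP climb from 0 hpf, the CT583728 loci are high at 0 and 7 hpf, and miR-430 leaves 0 at 3 hpf.

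RNA first measured at 3 hpf was sought by a simple rule in the Ribo-Zero libraries, which 15 genes met. The rule was under 0.5 TPM in each of the libraries at 0, 1 and 2 hpf and at least 2 TPM at 3 hpf. Of these, 8 were miR-430 loci and the rest small RNA loci of the U1, U5, U3 and snoZ30 names. The U3 locus had 25.7 TPM at 3 hpf and 0 from 4 to 8 hpf, and 4.65 TPM in poly(A) at 0 hpf. The snoZ30 locus had 2.01 TPM at 3 hpf, 0 at every other Ribo-Zero hour, and 8.07 TPM at 2 hpf after alpha-amanitin. The U1 and U5 loci were measured again between 4 and 8 hpf. Meeting the rule therefore does not by itself mean that an RNA was new. Each of the 5 copies named dre-mir-430a-4 had 8.29 TPM at 3 hpf and 473 TPM at 4 hpf, so the values of these copies are not independent of each other. None of the 8 measured miR-430 loci was called in the window comparison, where 2 hpf and 3 hpf are averaged (change 2.89 to 3.2, and 0 at an unadjusted p under 0.05).

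Oocyte and egg factors lay lower than most genes. All 13 listed were measured, with a median change of -0.24 against -0.07 over all genes tested, and 8 of the 13 were lower in both later libraries, against a background of 27.3%. None was called by limma, and 6 of 13 were lower at an unadjusted p under 0.05, against 5.22% of all genes. The median relative to all genes was between -0.29 and -0.12 under the 12 alternatives, and -0.19 without the 0 hpf library. The list was drawn up with earlier results of these data known.

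Among them zar1l, a relative of the oocyte factor zar1, had 317, 300, 234 and 189 TPM (change -0.55, SE 0.12). The egg envelope gene zp3b had 145, 142, 110 and 99.3 TPM (change -0.46, SE 0.11). The kinase mos, which holds the egg in meiotic arrest, had 218, 182, 168 and 124 TPM (change -0.46, SE 0.15). All 3 were lower at each hour than at the hour before it, and mos was at 41.8 TPM at 4 hpf. Also low were btg4, which in mouse oocytes recruits the CCR4-NOT deadenylase, with 374, 320, 295 and 236 TPM, and the oocyte growth factor bmp15, with 107, 89.7, 80.7 and 75.7 TPM. In contrast h1m, the maternal linker histone, had 1693, 1768, 1727 and 1639 TPM, and the windows of wee2, an oocyte kinase of the Wee1 family, overlapped.

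Germ plasm transcripts differed among themselves. The 14 had a median change of -0.11 and 0 were called. In both later libraries 5 of the 14 were lower, against 27.3% of all genes. At an unadjusted p under 0.05 in limma 2 of the 14 were lower, against 5.22% of all genes. The germ cell RNA-binding factor nanos3 had 87.6, 73.2, 63.1 and 56.7 TPM (change -0.42, SE 0.13) and ca15b had 778, 718, 646 and 520 TPM (change -0.37, SE 0.13). Without the 0 hpf library these were -0.29 and -0.31, and the median of the list was 0.00, against 0.02 over all genes. The windows of ddx4, the germline helicase Vasa, overlapped, with 54.5, 47.1, 48.0 and 48.6 TPM.

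For the cell cycle, 23 of 25 listed genes were measured, with a median change of -0.11 and 0 called in limma. In both later libraries 13 of the 23 were lower, against 27.3% of all genes. At an unadjusted p under 0.05 in limma 3 were lower, against 5.22% of all genes. The mitotic cyclin ccnb1 had 1092, 1042, 979 and 1003 TPM and the mitotic kinase plk1 860, 889, 881 and 834 TPM. The lowest change was that of the S-phase cyclin ccne2, a scarce transcript with 4.82, 4.36, 3.21 and 3.14 TPM (-0.52, SE 0.25, unadjusted p = 0.0597). The 3 with an unadjusted p under 0.05 were ccnb3, with 75, 62.6, 54.8 and 46.5 TPM (-0.44, SE 0.14), the securin gene pttg1, with 92.8, 101, 76.6 and 78.2 TPM (-0.32, SE 0.11), and the chromosomal passenger kinase aurkb, with 223, 215, 180 and 181 TPM (-0.28, SE 0.10). Leaving out the 0 hpf library gave a median of -0.05, against 0.02 over all genes. The 19 spindle and cytokinesis genes had a median of -0.07 and 0 calls, with 2 lower at an unadjusted p under 0.05 (5.22% of all genes). One of these 2 was birc5a, the survivin gene, with 96.3, 99.5, 79.6 and 70.2 TPM (change -0.39, SE 0.12).

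For the machinery that later clears or activates transcripts, no member was called. The 34 measured members of the mRNA decay list had a median change of 0.00 and 0 were called. In both later libraries 1 was lower and 2 were higher, against 27.3% and 7.1% of all genes. Apart from btg4 (on this list too), none of them reached an unadjusted p under 0.05. The scaffold of the CCR4-NOT deadenylase, cnot1, had 43.8, 30.5, 45.0 and 44.7 TPM. Without the 0 hpf library, and so against the 1 hpf library alone, the median of the list was 0.12 against 0.02 over all genes. Of the genome activators 13 were measured, with a median of -0.01, 0 calls in limma and 0 at an unadjusted p under 0.05. The median was 0.14 without the 0 hpf library, against 0.02 over all genes. The pioneer factor pou5f3 had 295, 259, 285 and 305 TPM, and sox19b had 322, 282, 267 and 274 TPM. The 19 measured genes of mRNA masking and poly(A) binding had a median change of -0.03 and 0 calls in limma. In both later libraries 4 of the 19 were lower and 0 higher, against 27.3% and 7.1% of all genes. At an unadjusted p under 0.05 in limma 2 were lower, against 5.22% of all genes. Their lowest change was that of cpeb1b, the cytoplasmic polyadenylation factor, with 130, 76.9, 73.5 and 59.9 TPM (-0.59, SE 0.20). Most of this fall lay between 0 and 1 hpf, and without the 0 hpf library the change of cpeb1b was -0.21.

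Ribosomal protein messages lay at the median of all genes, with -0.07 over 84 measured members and 0 calls in limma. In both later libraries 31 of the 84 were lower and 8 higher, against 27.3% and 7.1% of all genes. At an unadjusted p under 0.05 in limma 3 of the 84 were lower, against 5.22% of all genes. The 62 measured histone genes had a median of -0.11 and 1 call, HIST2H4B, with 22 lower and 3 higher in both later libraries. The medians were -0.07 and -0.15 without the 0 hpf library, against 0.02 over all genes. With median-of-ratios scaling the median over all genes was 0.00 in place of -0.07. On that scale the medians of the oocyte, germ plasm and cell cycle lists were -0.18, -0.04 and -0.04.

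**Figure D4:**
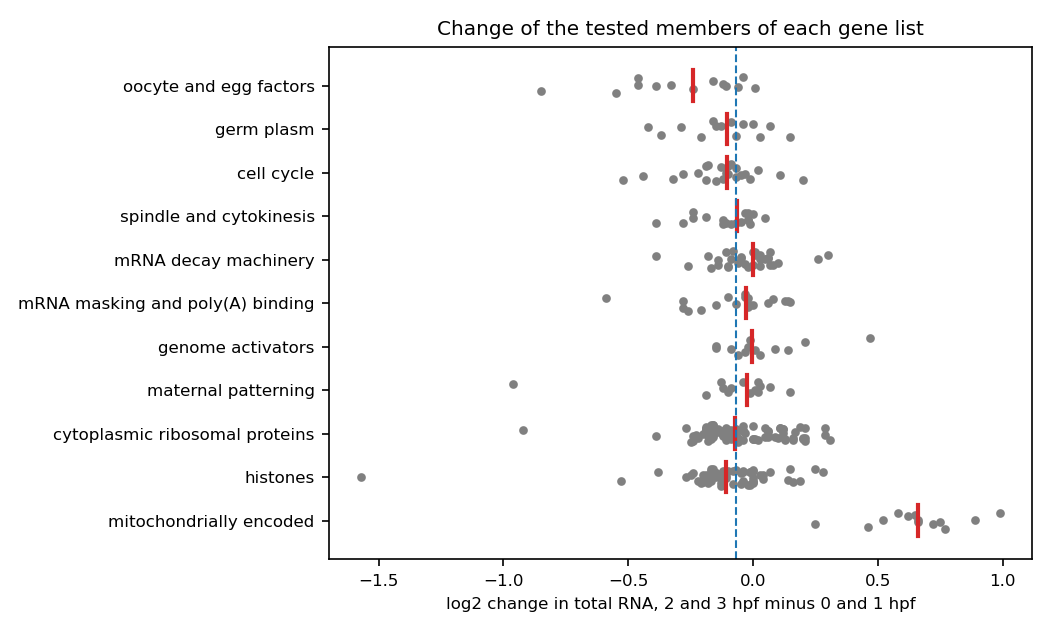
Log2 change in total RNA between 2 and 3 hpf and 0 and 1 hpf for each measured member (grey) of 11 gene lists, with the median of the list in red and the median of all genes, -0.07, as a dashed line (points are spread vertically for visibility). Oocyte and egg factors lie lowest at a median of -0.24, and mitochondrially encoded messages highest at 0.66.

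The same hours looked very different in the poly(A) profile, which comes from separate libraries. There 454 of 13234 genes (3.43%) were called lower and 6291 (47.5%) higher, with a median change of 1.21, and only 19.2% changed by less than 0.5. These poly(A) counts rest on the scaling and on single libraries. Median-of-ratios scaling gave 1063 lower and 1349 higher with a median of 0.50. Without the 2 hpf library they were 34 and 35, and without the 3 hpf library 27 and 13. Over the 12917 genes measured in both profiles the changes correlated at Pearson r = 0.12 and Spearman rho = 0.148, as a description across genes, which are not independent replicates.

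A test of the difference between the changes (Ribo-Zero minus poly(A)), in which same-hour libraries were not paired, called 5931 of 13872 genes (42.8%) lower and 246 (1.77%) higher, with a median of -1.28. With median-of-ratios scaling the split turned, to 824 lower and 1336 higher, with a median of -0.35. The median difference was thus negative under both scalings, while its size and the direction with more calls depended on the scaling. Leaving out a library in turn gave 1517 to 7266 lower and 51 to 840 higher, the fewest of both without the Ribo-Zero library at 0 hpf.

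Several egg and mitotic transcripts fell far more in the poly(A) profile than in total RNA, while others on the same lists rose there. Of the 13 oocyte and egg factors 3 were called lower in poly(A) and 3 higher, against 3.43% and 47.5% of all genes. These counts were 4 and 9 of 23 for the cell cycle list, and 4 and 7 of 19 for the spindle and cytokinesis list. None of these lists had a larger share called higher than all genes. The change of zar1l was -4.25 in poly(A) and -0.55 in Ribo-Zero, and the difference was called (adjusted p = 0.00543), also in each of 11 alternatives. For aurkb the values were -2.99 and -0.28 (adjusted p = 0.00672) and for the spindle motor kif11 -2.87 and -0.24 (adjusted p = 0.0075), both also called in each of 11 alternatives. For dck they were -4.08 and -0.81 (adjusted p = 0.00679), with 151, 49.6, 5.57 and 4.5 TPM in poly(A), called in each of 11 alternatives. For CR790368.1 they were -2.88 and -0.94 (adjusted p = 0.0496), called in 5 of 11. The germ plasm gene dazl had -2.17 and -0.21 (adjusted p = 0.0266), called in 7 of 11.

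Other transcripts were higher in poly(A) and flat or lower in total RNA. On the spindle and cytokinesis list cdca8 had a poly(A) change of 2.39 and a Ribo-Zero change of -0.19. This difference was called in 9 of 11 alternatives, and not with median-of-ratios scaling. The activator sox19b had a poly(A) change of 2.77 and a Ribo-Zero change of -0.15 (difference adjusted p = 0.0057, called in each of 11 alternatives). For buc the values were 2.24 and 0.01 (adjusted p = 0.0109), but with median-of-ratios scaling the difference was not called (adjusted p = 0.182). The called genes hmgb3a and CU929416.1 were lower in total RNA and higher in poly(A), by 1.16 (adjusted p = 0.0464) and 1.97 (adjusted p = 0.00437), but with median-of-ratios scaling these poly(A) changes were 0.45 (adjusted p = 0.447) and 1.26 (adjusted p = 0.0802) and neither was called. Of the 10 genes called lower in total RNA that were also tested in poly(A), 2 were called lower there and 3 higher, against 3.43% and 47.5% of all genes. Of the 14 called higher that were tested, 7 were called higher in poly(A) and 0 lower, a share near the 47.5% of all genes in that profile.

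**Figure D5:**
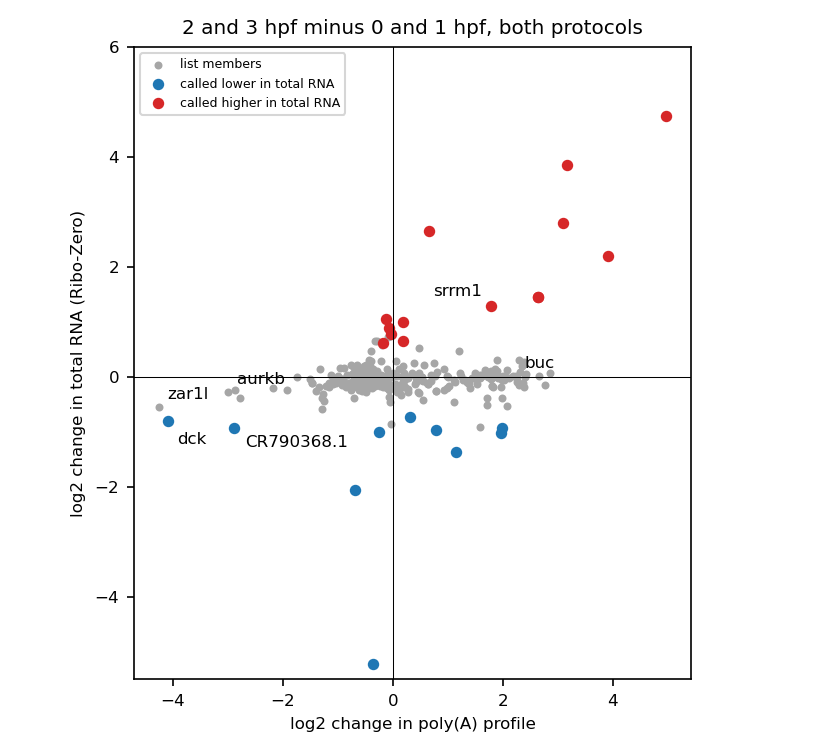
Log2 change between 2 and 3 hpf and 0 and 1 hpf in the poly(A) profile (horizontal) and in total RNA (vertical) for list members (grey) and for genes called lower (blue) or higher (red) in total RNA. List members spread from -4.25 to above 2 in poly(A) while most stay within 0.5 of 0 in total RNA.

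In embryos with transcription blocked, the genes called in total RNA were followed by their poly(A) level from 2 to 4 hpf. Over all 14210 genes tested, 337 (2.37%) had a falling slope and 1815 (12.8%) a rising slope, and without the 2 hpf library 0 of either were called in limma, with 406 and 1478 at an unadjusted p under 0.05. Of the 12 genes called lower in total RNA and tested here, 1 slope was called falling and 1 rising. The same held for the 16 called higher. CR790368.1 went from 2317 TPM at 2 hpf to 1053 at 3 hpf and 523 at 4 hpf, a slope of -0.93 per hour (SE 0.14, adjusted p = 0.00726). Against their calls in total RNA, si:dkeyp-46h3.6 rose, with a slope of 0.42 (SE 0.12, adjusted p = 0.0452). The scarce si:ch211-226h8.8, called higher, fell, with a slope of -0.9 (SE 0.16, adjusted p = 0.0108). The message of dck was already at 5.03 TPM at 2 hpf and had a slope of -0.19 (SE 0.20, adjusted p = 0.566). The poly(A) level of srrm1 had a slope of -0.37 (SE 0.11, adjusted p = 0.0563), with 242, 223 and 153 TPM at 2, 3 and 4 hpf. That of hmgb3a, which in wild-type poly(A) libraries was 33.2 TPM at 4 hpf, was 16.5 TPM at 4 hpf after alpha-amanitin. At 2 and 3 hpf it was the other way, with 10.9 and 14.5 TPM after alpha-amanitin and 6.52 and 9.3 TPM in wild type. A difference between injected and wild-type embryos was not tested.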

How the data were processed

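Reads were aligned by the authors with STAR 2.7.3a to danRer11 (Ensembl gene models) and quantified with RSEM, and the deposited values are TPM with 2 decimals that sum to 1000000 per library. TPM keeps no read depth, so no counting interval is given. Of 35117 gene identifiers, 687 have no name and 27000 matched the reference table of names.

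Changes were fitted with limma 3.58.1 (R 4.3.3) on log2(TPM + 0.1), with a mean-variance trend, two-sided, with Benjamini-Hochberg adjustment over all genes averaging 1 TPM or more and a threshold of 0.05 (2 residual and 9.55 prior degrees of freedom for Ribo-Zero). The poly(A) windows, the protocol-by-window interaction and the alpha-amanitin slope (2, 2.5, 3, 3.5 and 4 hpf) were fitted alike. Of 200 genes changed by 2 on the log2 scale in simulated Ribo-Zero data, 79.5% were recovered, and 0% of those changed by 1. For poly(A) windows, 51% of genes changed by 4 were recovered and 0% of those changed by 2. All other genes were simulated as unchanged, and the noise of each gene was taken from its own residuals. The real data differ from this setting. The Ribo-Zero fit called mt-nd5 at a change of 0.62, and the poly(A) fit called 6291 genes higher with a median change of 1.21 over all genes. The simulated rates are therefore not detection limits of these fits.

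Named genes were called genes averaging 10 TPM or more with windows that do not overlap (19), and members of gene lists. The members and lists were chosen with earlier results of these data known. Name patterns for structural RNA, histone and ribosomal protein lists were corrected after the names in the files were seen, and 5 list entries matched no gene. Alternatives were other pseudocounts, filters and scalings, a slope, no trend, and leaving out each library. Figures used Python 3.11.15 and matplotlib 3.10.9.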

Additional observations from a re-analysis of the deposited data

Results flagged for a closer look

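The change between the windows was compared between total RNA and the poly(A) profile for the 19 called genes averaging 10 TPM or more. In 6 of them the difference itself (limma interaction, Ribo-Zero minus poly(A), log2 scale) was called. It was -2.52 for hmgb3a, -2.99 for CU929416.1, -1.74 for wnt8a and -2.93 for znf1157, all lower in total RNA, against a median of -1.28 over all genes. It was 1.94 for CR790368.1 and 3.28 for dck, whose poly(A) level fell more than their total RNA. Over all genes, 42.8% were called lower in this test and 1.77% higher, so a lower call was not particular to these genes. With median-of-ratios scaling the differences of CU929416.1 (-2.05, adjusted p = 0.0356), CR790368.1 (2.9, adjusted p = 0.0485) and dck (4.23, adjusted p = 0.0354) were still called. Those of hmgb3a (-1.57, adjusted p = 0.0612), wnt8a (-0.79, adjusted p = 0.184) and znf1157 (-2.08, adjusted p = 0.196) were not.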

How the results depend on the processing

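For Ribo-Zero, the main counts of 15 lower and 17 higher became 0 and 0 with no filter on low values (909 and 380 at an unadjusted p under 0.05 in limma), 37 and 27 for genes averaging 5 TPM or more, 0 and 1 with median-of-ratios scaling, 6 and 8 with a slope over 0 to 3 hpf, 2 and 1 with no mean-variance trend, and 0 and 1 with mitochondrial and small structural RNAs removed. Leaving out each library gave 0 to 76 lower (0 without 0 hpf, 3 without 1 hpf, 75 without 2 hpf, 76 without 3 hpf) and 0 to 73 higher (0, 0, 73 and 54). Of the genes called in the main fit, 12 lower and 13 higher were among those called without 2 hpf. For poly(A), median-of-ratios scaling gave 1063 lower and 1349 higher, and leaving out a library 27 to 520 lower and 13 to 6514 higher. For the difference between profiles it gave 824 lower and 1336 higher, and leaving out a library 1517 to 7266 lower and 51 to 840 higher. With the hour as a replicate block, an alternative chosen after seeing the data, it was 6495 lower and 325 higher. Deviations of same-hour libraries from their window mean correlated at r = 0.0518 (0 and 1 hpf) and 0.153 (2 and 3 hpf) across genes, so the hour was not shown to pair them. For the alpha-amanitin slope it gave 685 lower, and leaving out a library 0 to 797 lower and 0 to 3014 higher, 0 of both without 2 hpf. The cause of these shifts was not tested. Pseudocounts of 0.01 and 1 kept the Ribo-Zero counts at 12 to 17 lower and 13 to 20 higher. The named genes kept their direction in all 220 combinations with an alternative and their call in 83. Except under rescaling, the direction was fixed by choosing genes with windows that do not overlap. Depth is unknown, so low values carry no counting error.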

Other observations

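In the Ribo-Zero libraries the CT583728 loci summed to 31540 TPM at 0 hpf and 23700 TPM at 7 hpf and to at most 247 TPM in the other 7. In the 9 wild-type poly(A) libraries they summed to between 15170 and 78230 TPM, and in the 5 alpha-amanitin libraries from 2 to 4 hpf to between 10780 and 18340 TPM.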
